A study of Mus musculus with 8 samples.

Results

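The genes followed here are 37 of the 42687 in the deposited count table, all known as interferon-stimulated and outside the best known interferon-induced families. They were taken by symbol from a list of interferon-stimulated genes that takes in the TRIM and Schlafen families. The list was chosen with earlier results of these data known, so member shares set beside those of all genes are a description. Every listed gene had at least 10 counts summed over the 8 libraries, so none was lost. The cells were a mouse pancreatic cancer clone of low immunogenicity, isolated from KPCY mice. Those mice carry a Cre-dependent KrasLSL-G12D/+ allele together with Trp53LSL-R172H/+ and a Rosa26YFP/YFP reporter, recombined by Pdx1-Cre, which acts in the pancreatic lineage, while the genotype field of each library reads WT. All groups therefore share 1 clone and its alleles. The control group received PBS. A second group received 15 µg/mL of mouse ATEVs, an abbreviation that the labels do not spell out. NTEVs, vesicles (EVs) from T cells that had not been activated, were given to the third group at 30 µg/mL, and the labels relate these EV doses to 5 µg/mL of EV-DNA. The last group received 15 µg/mL of ATEVs that had first been treated with Baseline-ZERO DNase, an enzyme that digests DNA. Cells were harvested and reseeded between exposures, which were repeated 8 times. Each group has 2 libraries, here called library 1 and library 2 after the numbers in their titles.

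Type I and type III interferons act through a complex with STAT2 and IRF9 that binds the interferon-stimulated response element in promoters, while interferon gamma acts mainly at the gamma-activated site. The genes switched on this way encode proteins that block virus entry, modify proteins with the ubiquitin-like ISG15, degrade or sense RNA, and organise nuclear bodies. Cytosolic DNA is a known trigger of interferon production through the cGAS and STING proteins. The DNase-treated group addresses how far these genes respond to ATEVs that were treated with DNase beforehand. How much EV DNA remained after that treatment is not in the labels.

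Library totals ran from 34385326 to 52451398 counts. Of the 42687 genes, 15197 passed the filter on low counts and were tested with edgeR's quasi-likelihood test, with Benjamini-Hochberg adjustment over all of them and a threshold of 0.05. Members called at that threshold are said to have risen or fallen. With 2 libraries a group, an exact permutation test of a single comparison cannot go below p = 0.333, so all tests borrow the spread from the fit across genes, which had 4 residual degrees of freedom. Whether the 2 libraries of each treatment are separate cultures is not in the labels, and each p-value thus covers only how far those libraries differed, which may be technical. Levels are given as CPM, counts scaled by the TMM library size. All 8 epithelial markers were detected and summed to between 8276 and 11120 CPM in each library. T cell markers summed to between 2.2 and 6.58 CPM, most of it Lck, with Cd2 and Cd8a at 0 in every library. The myeloid and B cell list was higher in the EV groups: its sum was 70.3 and 104 CPM with PBS, 157 and 171 CPM with ATEVs, 109 and 128 CPM with NTEVs and 203 and 276 CPM with DNase-treated ATEVs. Cd14 made up most of that sum, while Adgre1 and Ms4a1 were at 0 in every library. The part of Cd14-expressing cells in the results below was not tested, and in bulk RNA fewer cells of a type and less RNA per cell cannot be told apart.

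Exposure to ATEVs raised 18 of the 35 members tested, and none fell. Against this stands a background of 3.52% of all genes tested called higher in the same comparison, and 1.66% called lower. The largest rises were in the nuclear body genes Sp110 and Sp100, the TRIM gene Trim30a, the receptor transporter Rtp4 and the apoptosis factor Xaf1. In 32 of the 35 members both ATEV libraries lay above both PBS libraries, which was so for 25.2% of all genes. The median log2 fold change of the 35 was 1.35, while that of all genes tested was -0.02. Sp110 passed the low-count filter only through its ATEV libraries, so it had to differ, and without it 17 of 34 members rose. Ifitm1 and Slfn5 did not pass the filter. Leaving out any 1 PBS or ATEV library lowered the number of calls among members and over all genes tested, most so without a PBS library. Rtp4, Sp100 and Phf11d passed in all 4 of these fits, with a highest edgeR adjusted p of 0.0455, 0.0327 and 0.0341. The other 15 lost the call in at least 1 of them.

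**Figure D1:**
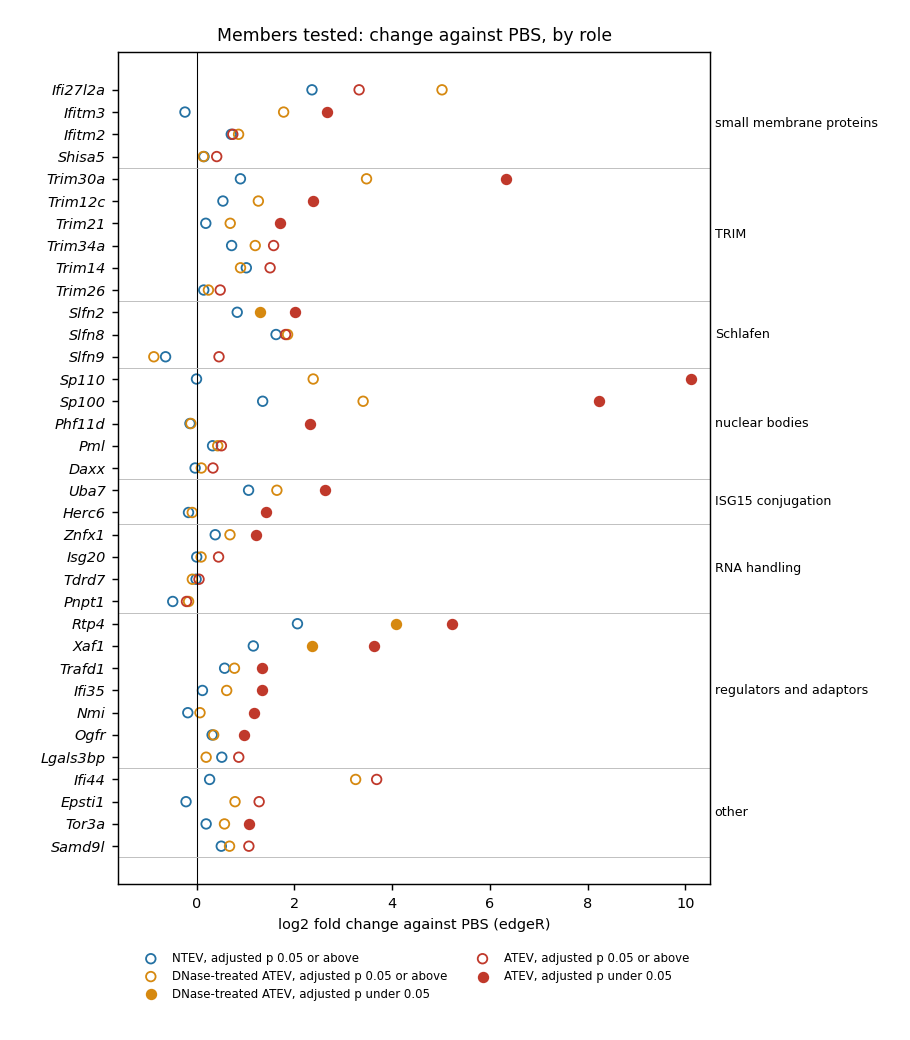
edgeR log2 fold change against PBS (horizontal axis) of the 35 members tested, grouped by role, with ATEVs in red, NTEVs in blue and DNase-treated ATEVs in orange; filled points have an adjusted p under 0.05. Filled red points number 18, filled orange points 3 (Rtp4, Xaf1, Slfn2), and no blue point is filled.

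Many interferon-stimulated promoters carry the core of the response element, GAAA followed by any 2 bases and GAAA again. It was searched on both strands of the RefSeq promoter windows, which run from 250 bases before to 50 bases after each start site in GRCm38.p6. A window was found for 33 of the 37 members. The core was present in 13 of these 33 (39.4%), against 1079 of 27025 genes with a window (3.99%). Among members that rose with ATEVs 5 of 16 held it (31.2%), and among the other members 8 of 17 did (47.1%). The gamma-activated site, written TTCNNNGAA, was found in 4 of the 33 (12.1%), against 9.55% of all genes with a window. A match describes the letters only. The sequences below show the core, in capitals, in TRIM and IFITM members that did and did not pass the test with ATEVs, and in the Schlafen neighbours Slfn8 and Slfn9, neither of which passed; each is read 5′ to 3′ on the gene's own strand, and capitals that start with TTTC are the core on the opposite strand.
Trim30a, which rose, 71 bases at chr7:104465194-104465264, minus strand, the core ending 27 bases before one of its 2 start sites: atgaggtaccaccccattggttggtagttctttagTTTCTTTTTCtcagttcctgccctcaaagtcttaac
Trim12c, which rose, 64 bases at chr7:104353350-104353413, minus strand, the core ending 20 bases before the start site: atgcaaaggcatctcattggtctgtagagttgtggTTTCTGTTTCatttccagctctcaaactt
Trim21, which rose, 30 bases at chr7:102565444-102565473, minus strand, the core lying after the start site: agaggaaactGAAAGTGAAAtttggactgc
Trim26, not called, 80 bases at chr17:36836951-36837030, plus strand, the core ending 151 bases before the start site: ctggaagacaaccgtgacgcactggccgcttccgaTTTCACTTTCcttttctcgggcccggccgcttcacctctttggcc
Ifitm3, which rose, 30 bases at chr7:141010723-141010752, minus strand, the core lying after the start site: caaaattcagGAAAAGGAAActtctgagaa
Ifitm2, not called, 80 bases at chr7:140955963-140956042, minus strand, the core ending 37 bases before the start site: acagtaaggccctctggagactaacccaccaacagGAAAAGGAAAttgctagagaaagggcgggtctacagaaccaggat
Slfn8, not called, 80 bases at chr11:83020814-83020893, minus strand, the core ending 39 bases before one of its 2 start sites: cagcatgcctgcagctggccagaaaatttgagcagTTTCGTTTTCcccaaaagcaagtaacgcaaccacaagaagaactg
Slfn9, not called, 80 bases at chr11:82991831-82991910, minus strand, the core ending 36 bases before the start site: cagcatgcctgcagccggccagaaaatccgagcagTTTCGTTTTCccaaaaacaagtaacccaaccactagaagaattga

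The largest log2 changes with ATEVs among the members were those of Sp110 and Sp100, each at or near 0 counts with PBS. They belong to the nuclear body group, which also takes in Pml, Daxx and Phf11d. PML nuclear bodies are protein assemblies organised by the PML protein, with SP100 as a constant constituent and DAXX, a histone chaperone, as a client, and SP110 is a relative of SP100. Sp110 had 0 counts in both PBS libraries and both NTEV libraries and stood at 2.99 and 3.47 CPM with ATEVs. With DNase-treated ATEVs it had 0 counts in library 1 and 1 count in library 2, or 0.0249 CPM. The 282 counts with ATEVs put Sp110 at least 90.8-fold higher than with PBS and at least 98.3-fold higher than with NTEVs, taking 3 counts over a group as the limit that 0 counts allows. Sp110 was thus read in the ATEV libraries and next to absent elsewhere. It entered the test only through those libraries, so these counts are a description and its p is not given.

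Sp100 followed the same order, with 0 and 0.0912 CPM with PBS, 9.68 and 14.3 CPM with ATEVs, 0.0977 and 0.0995 CPM with NTEVs and 0.242 and 0.597 CPM with DNase-treated ATEVs. The PBS group held 3 counts of Sp100, so the ATEV to PBS ratio was 337, and its 95% counting interval ran from 115 to 1637. The DNase-treated libraries lay above the PBS libraries, but at a ratio of 11.7 (95% counting interval 3.69 to 59.7). The counting intervals here cover counting error only.

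Phf11d, which encodes a PHD-finger protein, stood at 4.12 and 7.96 CPM with PBS and at 29.5 and 30.3 CPM with ATEVs. NTEVs gave 5.36 and 5.60 CPM and DNase-treated ATEVs gave 5.16 and 5.95 CPM, both within the span of the PBS libraries. The rise with ATEVs was 2.31 ± 0.31 (SE) on the log2 scale with an edgeR adjusted p of 0.00840. Pml itself was at 68.6 and 58.5 CPM with PBS, 92.5 and 88.4 CPM with ATEVs, 81.0 and 78.6 CPM with NTEVs and 86.7 and 85.0 CPM with DNase-treated ATEVs. All 6 EV libraries of Pml lay above both PBS libraries, but the ATEV difference of 0.51 did not pass the test (edgeR adjusted p = 0.0672). Daxx was at 54.7 and 50.5 CPM with PBS, 69.9 and 62.9 CPM with ATEVs, 54.3 and 48.8 CPM with NTEVs and 58.7 and 53.9 CPM with DNase-treated ATEVs, and was not called. The log2 differences of Pml and Daxx, 0.51 and 0.34, were small beside those of Sp100 and Sp110.

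Relatives of these genes were read the same way. Sp140, another Sp100-family gene, passed the low-count filter only through its ATEV libraries, so its levels are a description. They went from 0.00971 ± 0.0137 CPM (SD, n = 2) to 9.02 ± 1.70 CPM with ATEVs and were at 0.135 ± 0.0200 CPM after DNase treatment. Phf11b rose by 4.09 with ATEVs (edgeR adjusted p = 0.00182) and fell by 3.75 when the ATEVs had been DNase-treated (edgeR adjusted p = 0.00544). Without either DNase-treated library the fall of Phf11b was not called, with a highest edgeR adjusted p of 0.0688. Phf11c was at 1.03 ± 0.136 CPM (SD, n = 2) with PBS and 0.734 ± 0.555 CPM with ATEVs and was not called. Near-identical Phf11 and Sp100-family copies lie close together in the mouse genome, so the split of reads among them is uncertain.

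Among the 6 TRIM members, which are RING-type ubiquitin ligases or their relatives, 3 rose with ATEVs: Trim30a, Trim12c and Trim21. Trim30a, known for dampening NF-kappaB signalling, was at 0.0583 and 0.0608 CPM with PBS, 3.36 and 6.59 CPM with ATEVs, 0.0391 and 0.199 CPM with NTEVs and 0.411 and 0.971 CPM with DNase-treated ATEVs. Its ATEV log2 fold change was 6.32 ± 0.84 (SE), with an edgeR adjusted p of 0.00823, resting on 5 counts in the PBS group. The DNase-treated libraries of Trim30a lay between the PBS and the ATEV libraries and overlapped neither.

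Trim12c, a mouse relative of the retroviral restriction factor TRIM5, was at 3.48 and 3.04 CPM with PBS, 15.9 and 18.3 CPM with ATEVs, 3.44 and 6.07 CPM with NTEVs and 6.53 and 9.16 CPM with DNase-treated ATEVs. Its log2 fold change with ATEVs was 2.39 ± 0.32 (SE), with an edgeR adjusted p of 0.00910. Trim21, a cytosolic antibody receptor, averaged 4.53 ± 0.952 CPM (SD, n = 2) with PBS, 14.8 ± 3.16 CPM with ATEVs, 5.19 ± 0.758 CPM with NTEVs and 7.33 ± 0.510 CPM with DNase-treated ATEVs. It rose by 1.70 ± 0.26 (SE) with ATEVs on the log2 scale (edgeR adjusted p = 0.0141). Both genes had their DNase-treated libraries between the PBS and ATEV groups.

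Trim14, an adaptor of antiviral signalling, was at 4.53 and 3.16 CPM with PBS, 9.08 and 12.8 CPM with ATEVs, 4.79 and 10.9 CPM with NTEVs and 5.64 and 8.76 CPM with DNase-treated ATEVs. Trim34a was at 3.22 and 2.097 CPM with PBS, 6.07 and 9.90 CPM with ATEVs, 2.66 and 6.17 CPM with NTEVs and 4.74 and 7.57 CPM with DNase-treated ATEVs. In both genes the ATEV libraries cleared the PBS libraries, yet library 1 and library 2 were far apart in every group, PBS included. The log2 differences of 1.51 and 1.58 between ATEVs and PBS did not pass (edgeR adjusted p = 0.107 and 0.119). Trim26, an abundant TRIM ligase, was at 103 and 127 CPM with PBS, 171 and 150 CPM with ATEVs, 138 and 117 CPM with NTEVs and 142 and 130 CPM with DNase-treated ATEVs. Its ATEV difference was 0.48 (edgeR adjusted p = 0.136).

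Of 62 other TRIM genes in the table, 38 were tested, and 3 of them were called higher with ATEVs: Trim12a, Trim5 and Trim30d. That is 7.9% of the 38, Trim30d included, where 3.52% of all genes tested were called higher. Trim30d, at 0.309 ± 0.0793 CPM (SD, n = 2) with ATEVs and with 0 counts with PBS, passed the low-count filter only through its ATEV libraries and had to differ. Trim12a rose by 2.18 and Trim5 by 2.60 (edgeR adjusted p = 0.0116 and 0.0228). The call of Trim12a was lost when PBS library 1 or PBS library 2 was left out and that of Trim5 with any 1 of the 4 libraries left out, and their largest edgeR adjusted p with any library left out was 0.120 and 0.140. Trim8, the fourth by p, was at 88.9 ± 3.73 CPM (SD, n = 2) with PBS and 134 ± 12.7 CPM with ATEVs, with an edgeR adjusted p of 0.0583. The median log2 fold change of the 38 was 0.11, beside 1.64 for the 6 members. These 3 relatives are close paralogs of Trim12c and Trim30a, and reads that fit several of these copies could have been split among them.

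**Figure D2:**
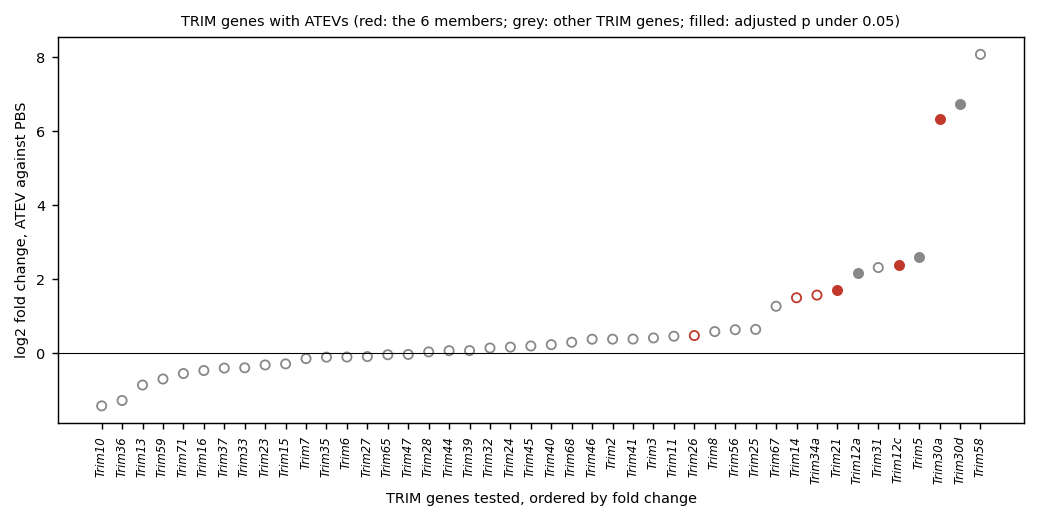
edgeR log2 fold change with ATEVs against PBS (vertical axis) of all TRIM genes tested, in order of fold change; red points are the 6 members, grey points the other 38, and filled points have an adjusted p under 0.05. Filled points are Trim30a, Trim12c and Trim21 in red and Trim30d, Trim5 and Trim12a in grey.

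Of the 4 Schlafen members, 1 rose with ATEVs, 2 were not called and 1 was too low to test. Slfn2, whose product keeps T cells quiescent, was at 43.8 and 26.4 CPM with PBS, 138 and 146 CPM with ATEVs, 53.3 and 71.9 CPM with NTEVs and 78.5 and 94.6 CPM with DNase-treated ATEVs. It rose by 2.01 ± 0.27 (SE) on the log2 scale with ATEVs (edgeR adjusted p = 0.00833), and the 4 groups did not overlap. Slfn5, a long Schlafen with a helicase-like domain, was near the limit of detection. Its PBS libraries held 1 and 0 counts, its ATEV libraries 8 and 21, its NTEV libraries none and its DNase-treated libraries 4 and 1. It was not tested, and its ATEV to PBS ratio of 28.03 has a 95% counting interval from 4.65 to 1145.

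Slfn8 and Slfn9 are neighbouring, near-identical long Schlafens, and the windows printed above differ at 24 of 80 bases when lined up on the core without gaps. Most of these differences follow the core, where Slfn8 has an extra c that shifts all later bases. The ungapped count therefore overstates how far the windows differ. Slfn8 was at 0.311 and 0.425 CPM with PBS, 1.08 and 1.51 CPM with ATEVs, 0.801 and 1.47 CPM with NTEVs and 0.920 and 1.74 CPM with DNase-treated ATEVs. Its 3 EV groups overlapped one another and lay above PBS, with a log2 difference of 1.82 for ATEVs that was not called (edgeR adjusted p = 0.0925). Slfn9 was at 54.0 and 65.7 CPM with PBS, 123 and 41.7 CPM with ATEVs, 56.2 and 20.9 CPM with NTEVs and 39.04 and 26.3 CPM with DNase-treated ATEVs. In each EV group library 2 of Slfn9 was the lower, and the ATEV libraries fell on either side of the PBS libraries (edgeR adjusted p = 0.680). Of the 7 other Schlafen genes only Slfn4 and Slfn10-ps were tested, and neither was called. Slfn4 was at 0.0249 ± 0.00775 CPM (SD, n = 2) with PBS, 0.412 ± 0.0670 CPM with ATEVs and 0.702 ± 0.274 CPM with DNase-treated ATEVs, and Slfn10-ps at 9.67 ± 4.09 CPM with PBS and 18.3 ± 0.730 CPM with ATEVs.

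Of the 5 small membrane proteins only Ifitm3 was called with ATEVs. IFITM proteins sit in cell and endosome membranes and hinder virus fusion. Ifitm3 was at 3.40 and 3.98 CPM with PBS, 26.4 and 20.5 CPM with ATEVs, 2.56 and 3.71 CPM with NTEVs and 7.96 and 17.4 CPM with DNase-treated ATEVs. It rose by 2.67 ± 0.40 (SE) with ATEVs on the log2 scale (edgeR adjusted p = 0.0141), and its NTEV libraries stayed near PBS. Ifitm2 was at 24.4 and 20.1 CPM with PBS, 27.98 and 46.4 CPM with ATEVs, 29.3 and 43.6 CPM with NTEVs and 32.8 and 48.0 CPM with DNase-treated ATEVs. The 3 EV groups of Ifitm2 overlapped one another, and its ATEV difference of 0.74 was not called (edgeR adjusted p = 0.232).

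Ifitm1 was lower in both ATEV libraries than with PBS, at 0.214 and 0.182 CPM with PBS against 0.0920 and 0.0456 CPM with ATEVs, but on 44 counts in all 8 libraries, too few to be tested. NTEVs gave 0.0391 and 0.149 CPM and DNase-treated ATEVs 0.169 and 0.149 CPM of Ifitm1. Ifitm10, the tested relative, was at 0.555 ± 0.0115 CPM (SD, n = 2) with PBS and 1.03 ± 0.135 CPM with ATEVs and was not called.

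Ifi27l2a, a small hydrophobic interferon-induced protein, was at 0.447 and 0.243 CPM with PBS, 1.56 and 5.61 CPM with ATEVs, 1.33 and 2.36 CPM with NTEVs and 3.24 and 20.04 CPM with DNase-treated ATEVs. Its 6 EV libraries all exceeded PBS, and its highest value came after DNase treatment, but library 2 was several-fold above library 1 there and with ATEVs. The ATEV log2 difference of 3.33 ± 1.04 (SE) was not called (edgeR adjusted p = 0.121), nor was that of DNase-treated ATEVs, 5.02 ± 1.08 (SE; edgeR adjusted p = 0.0561). Shisa5, a p53-induced membrane protein, was at 73.0 and 59.7 CPM with PBS, 77.1 and 99.6 CPM with ATEVs, 64.6 and 82.9 CPM with NTEVs and 65.2 and 81.1 CPM with DNase-treated ATEVs, with no call.

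ISG15 conjugation needs an activating enzyme, UBA7, a conjugating enzyme, UBE2L6, and in mice the ligase HERC6, while USP18 removes the modifier. Uba7 was at 6.43 and 6.14 CPM with PBS, 41.5 and 36.1 CPM with ATEVs, 9.30 and 17.0 CPM with NTEVs and 15.2 and 24.1 CPM with DNase-treated ATEVs. Herc6 was at 2.54 and 2.46 CPM with PBS, 7.20 and 6.14 CPM with ATEVs, 2.42 and 2.04 CPM with NTEVs and 2.25 and 2.46 CPM with DNase-treated ATEVs. Both rose with ATEVs, by 2.62 ± 0.34 and 1.41 ± 0.24 (SE), with edgeR adjusted p of 0.00791 and 0.0212. They differed after DNase treatment: Uba7 lay between PBS and ATEVs, while Herc6 lay at the PBS level.

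All 5 genes of the ISG15 pathway list, both members among them, rose with ATEVs, where 3.52% of all genes tested were called higher. Isg15 went from 0.828 ± 0.0104 CPM (SD, n = 2) to 24.3 ± 3.35 CPM and was at 9.28 ± 0.462 CPM after DNase treatment. Ube2l6 went from 7.19 ± 1.10 CPM to 62.1 ± 28.8 CPM and was at 13.2 ± 3.68 CPM after DNase treatment. Usp18 went from 0.714 ± 0.0213 CPM to 12.8 ± 5.16 CPM and was at 8.41 ± 4.26 CPM after DNase treatment. The edgeR adjusted p of these 3 rises were 0.00312, 0.00708 and 0.00739. Leaving out PBS library 1 or PBS library 2 ended each of these calls, with edgeR adjusted p of at most 0.0577, 0.0975 and 0.0980.

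Of the 4 RNA-handling members, Znfx1 alone rose with ATEVs. Znfx1, a helicase that binds viral RNA, was at 31.2 and 26.9 CPM with PBS, 72.5 and 63.5 CPM with ATEVs, 37 and 38.8 CPM with NTEVs and 48.0 and 45.4 CPM with DNase-treated ATEVs. It rose by 1.23 ± 0.14 (SE) with ATEVs (edgeR adjusted p = 0.00501), and the 4 groups did not overlap. Isg20, an RNA exonuclease, was at 45.5 and 39.2 CPM with PBS, 62.2 and 53.5 CPM with ATEVs, 38.3 and 46.7 CPM with NTEVs and 37.1 and 53.2 CPM with DNase-treated ATEVs.

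Pnpt1, a mitochondrial RNA-degrading enzyme, was at 68.8 and 88.3 CPM with PBS, 78.8 and 57.5 CPM with ATEVs, 62.1 and 50 CPM with NTEVs and 78.3 and 62.1 CPM with DNase-treated ATEVs. Tdrd7, a tudor-domain protein of RNA granules, was at 45.3 and 59.0 CPM with PBS, 54.2 and 53.8 CPM with ATEVs, 54.4 and 49.2 CPM with NTEVs and 52.6 and 45.6 CPM with DNase-treated ATEVs. None of these 3 was called with ATEVs, and the log2 differences were 0.45 for Isg20, 0.05 for Tdrd7 and -0.21 for Pnpt1, the only negative value among the 35. The 95% interval of the Tdrd7 difference ran from -0.34 to 0.44.

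Of the 7 regulators and adaptors, 6 rose with ATEVs. Rtp4, a chaperone of membrane receptors that also limits virus replication, was at 1.26 and 1.43 CPM with PBS, 47.5 and 53.1 CPM with ATEVs, 3.73 and 7.54 CPM with NTEVs and 15.4 and 29.9 CPM with DNase-treated ATEVs. Xaf1, which binds the apoptosis inhibitor XIAP, was at 8.29 and 6.29 CPM with PBS, 93.1 and 87.4 CPM with ATEVs, 11.1 and 21.7 CPM with NTEVs and 27.1 and 48.0 CPM with DNase-treated ATEVs. Both genes had 4 groups that did not overlap, in the order PBS, NTEV, DNase-treated ATEV, ATEV. The ATEV rises were 5.23 ± 0.48 and 3.63 ± 0.41 (SE) on the log2 scale, with edgeR adjusted p of 0.00231 and 0.00444.

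NMI and IFI35 bind each other. Nmi was at 19.9 and 17.7 CPM with PBS, 51.9 and 33.2 CPM with ATEVs, 16.2 and 17.0 CPM with NTEVs and 19.6 and 19.96 CPM with DNase-treated ATEVs. Ifi35 averaged 23.3 ± 0.127 CPM (SD, n = 2) with PBS, 58.8 ± 8.30 CPM with ATEVs, 25.3 ± 3.31 CPM with NTEVs and 35.7 ± 1.07 CPM with DNase-treated ATEVs. The rises with ATEVs were 1.18 and 1.34 (edgeR adjusted p = 0.0307 and 0.00594). After DNase treatment Nmi lay at the PBS level and Ifi35 above it.

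Trafd1, a brake on innate signalling, averaged 13.6 ± 1.39 CPM (SD, n = 2) with PBS, 34.7 ± 3.56 CPM with ATEVs, 20.3 ± 4.38 CPM with NTEVs and 23.4 ± 5.03 CPM with DNase-treated ATEVs. Ogfr, the opioid growth factor receptor, was at 48.7 and 52.2 CPM with PBS, 105 and 91.8 CPM with ATEVs, 58.2 and 67.7 CPM with NTEVs and 62.1 and 66.6 CPM with DNase-treated ATEVs. Both rose with ATEVs, by 1.35 and 0.97 (edgeR adjusted p = 0.0220 and 0.0124). Lgals3bp, a secreted partner of galectin-3, was at 491 and 491 CPM with PBS, 756 and 1033 CPM with ATEVs, 644 and 762 CPM with NTEVs and 475 and 652 CPM with DNase-treated ATEVs, and its ATEV difference of 0.86 was not called (edgeR adjusted p = 0.0665). Per kilobase of exon Lgals3bp was the highest of the 37 with PBS, at 173 CPM per kb, followed by Ifitm2 at 33.9 and Isg20 at 22.8 CPM per kb.

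Of the 4 members with other functions, Tor3a alone was called with ATEVs. Tor3a, an ATPase of the torsin family, averaged 26.6 ± 0.967 CPM (SD, n = 2) with PBS, 56.0 ± 5.89 CPM with ATEVs, 30.5 ± 3.58 CPM with NTEVs and 39.5 ± 2.43 CPM with DNase-treated ATEVs, and rose by 1.08 with ATEVs (edgeR adjusted p = 0.0109). Ifi44, an antiviral protein, was at 0.136 and 0.304 CPM with PBS, 1.29 and 4.199 CPM with ATEVs, 0.371 and 0.124 CPM with NTEVs and 1.16 and 2.91 CPM with DNase-treated ATEVs. Its ATEV and DNase-treated groups overlapped and both cleared PBS, with log2 differences of 3.69 and 3.26 that were not called (edgeR adjusted p = 0.0581 and 0.0890).

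Samd9l, a growth-restraining antiviral protein, was at 63.3 and 51.4 CPM with PBS, 103 and 138 CPM with ATEVs, 64.5 and 98.5 CPM with NTEVs and 76.2 and 107 CPM with DNase-treated ATEVs. Epsti1, first described at contacts of epithelium and stroma, was at 0.408 and 0.152 CPM with PBS, 0.736 and 0.685 CPM with ATEVs, 0.274 and 0.224 CPM with NTEVs and 0.460 and 0.548 CPM with DNase-treated ATEVs. Neither was called with ATEVs (edgeR adjusted p = 0.0716 and 0.195), though in both the ATEV libraries lay above the PBS libraries.

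**Figure D3:**
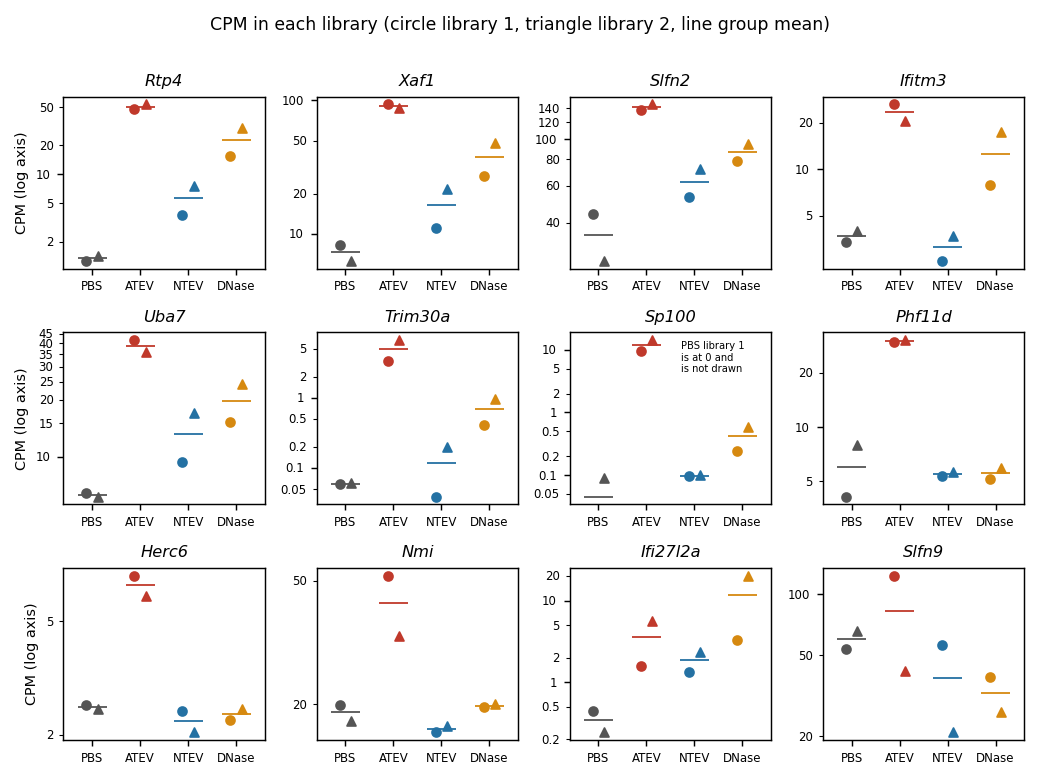
CPM on a log axis in each of the 8 libraries for 12 members, with circles for library 1, triangles for library 2 and a line at the group mean. Phf11d, Herc6 and Nmi lie near their PBS level after DNase treatment, Rtp4, Xaf1, Slfn2 and Uba7 lie between PBS and ATEVs, and Ifi27l2a is highest in DNase-treated library 2.

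NTEVs, given at 30 µg/mL, raised none of the 35 members by edgeR, where 0.704% of all genes tested were called higher. At an unadjusted p under 0.05 there were 9 members higher and none lower, where 10.3% of all genes were higher. DESeq2 called 3 members higher (Rtp4, Xaf1 and Uba7), where it called 3.82% of all genes. Nearest to a call was Rtp4, at a log2 difference of 2.07 ± 0.44 (SE; edgeR adjusted p = 0.0878), followed by Uba7 at 1.06 (0.168), Slfn8 at 1.63 (0.169) and Slfn2 at 0.83 (0.169). Both NTEV libraries lay above both PBS libraries in 16 members, against 28.6% of all genes, and below in 3, against 30.9% of all genes. The median log2 difference of the 35 was 0.32. EV dose by mass differed between the NTEV and ATEV groups, so source and dose cannot be told apart here.

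Set against NTEVs directly, ATEVs gave higher levels of 14 of the 35 members and lower levels of none, where 1.05% of all genes were called higher. Without Sp110, 13 of 34 members were called higher. The 14 were Sp100, Sp110, Phf11d, Trim30a, Trim12c, Trim21, Rtp4, Xaf1, Ifi35, Nmi, Ifitm3, Herc6, Znfx1 and Tor3a. All 35 log2 differences were positive, as were 7847 of all 15197 genes tested, and the median of the 35 was 0.96. In 25 members both ATEV libraries lay above both NTEV libraries (13.7% of all genes). The smallest difference was in Ifitm2, 0.03. Slfn2, Uba7, Trafd1 and Ogfr, which rose against PBS, were not called against NTEVs (edgeR adjusted p = 0.119, 0.104, 0.269 and 0.113). Fewer members, and fewer of all genes tested, were called with any 1 ATEV or NTEV library left out, the fewest without NTEV library 1.

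DNase-treated ATEVs raised 3 of the 35 members over PBS: Rtp4 by 4.08 ± 0.46, Xaf1 by 2.36 ± 0.39 and Slfn2 by 1.30 ± 0.26 (SE), with edgeR adjusted p of 0.0123, 0.0308 and 0.0498. In that comparison 2.16% of all genes were called higher. Uba7 at 1.64 and Znfx1 at 0.68 fell just short (edgeR adjusted p = 0.0505 and 0.0519), followed by Ifitm3 at 1.78 (0.0589) and Trim30a at 3.48 (0.0757). In 24 members both DNase-treated libraries lay above both PBS libraries, against 29.7% of all genes. In 1, Slfn9, both lay below, against 30.9% of all genes. The median log2 difference was 0.69, beside 0.32 with NTEVs and 1.35 with ATEVs, 3 comparisons that share the PBS libraries. Xaf1 and Slfn2 lost the call with any 1 PBS or DNase-treated library left out, and Rtp4 lost it without either PBS library. Calls over all genes tested fell in each of these fits too. DESeq2 called 16 members higher, where it called 7.13% of all genes.

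DNase treatment of the ATEVs lowered 3 of the 35 members compared with untreated ATEVs and raised none, where 0.579% of all genes were called lower and 0.0855% higher. They were Sp100, Phf11d and Sp110, of which Sp110 was tested only through its ATEV libraries and had to differ, which leaves 2 of 34 without it. For Sp110 the untreated to treated ratio was 263, and its 95% counting interval ran from 46.9 to 10430. Sp100 fell by 4.83 ± 0.64 (SE) and Phf11d by 2.43 ± 0.31 (SE), with edgeR adjusted p of 0.0260 and 0.0228. Herc6 fell just short at -1.50 (edgeR adjusted p = 0.0510), followed by Nmi at -1.10 (0.124). In 27 of the 35 members both DNase-treated libraries lay below both untreated libraries, against 16.8% of all genes. Negative differences were seen in 31 of the 35 and in 7341 of all 15197 genes tested, and the median of the 35 was -0.61. At an unadjusted p under 0.05 there were 19 members lower and none higher, where 4.97% of all genes were lower. Sp100, Phf11d and Sp110 each lost the call with any 1 ATEV or DNase-treated library left out. Calls over all genes tested fell in these fits too, though hardly without ATEV library 2. DESeq2 called 12 members lower, where it called 1.68% of all genes.

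For members not called after DNase treatment, the intervals show what size of difference remains possible. For Ifitm2 the log2 difference was 0.12 with a 95% interval from -0.62 to 0.86. For Slfn8 it was 0.04, from -1.05 to 1.13. For Ifi27l2a, the sole positive value above 1, it was 1.70, from -0.39 to 3.78. Rtp4, with a difference of -1.15 and an edgeR adjusted p of 0.322, is not shown to be equal in the treated and untreated groups.

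**Figure D4:**
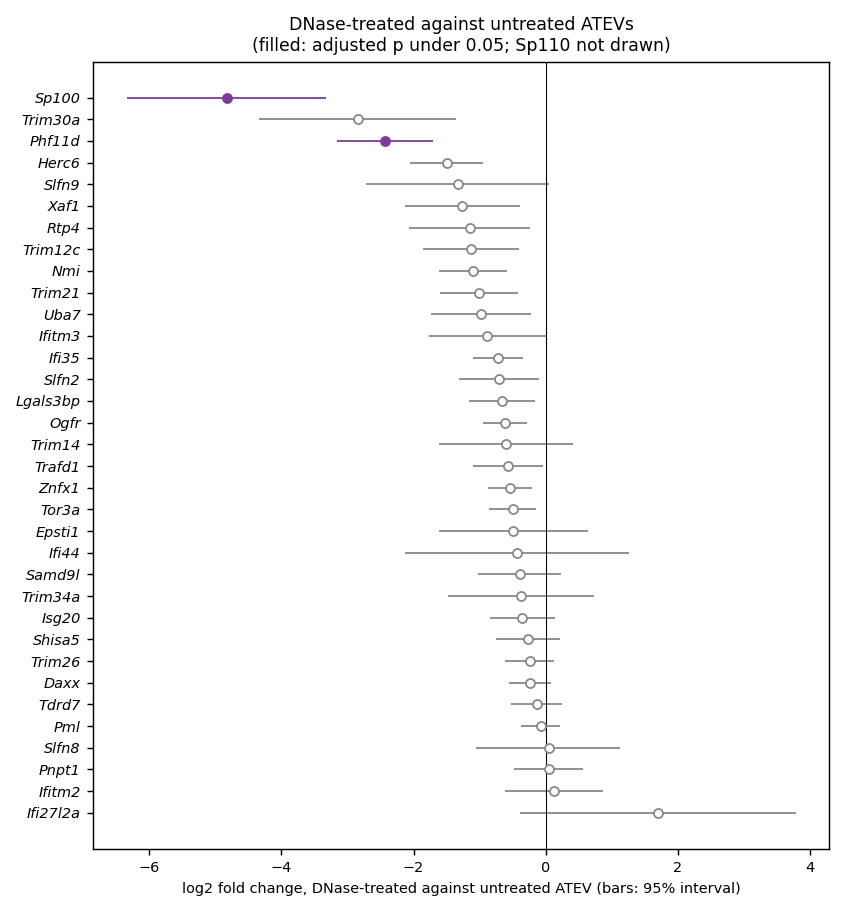
edgeR log2 fold change of DNase-treated against untreated ATEVs (horizontal axis) with 95% intervals for 34 members, in order; Sp110 is left out because its treated libraries hold 1 count. Filled points, with an adjusted p under 0.05, are Sp100 at -4.83 and Phf11d at -2.43, and Ifi27l2a lies farthest to the right.

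DNase-treated ATEVs against NTEVs gave no call in either direction by edgeR, where 0.0461% of all genes were called higher and 0.00658% lower. Counting unadjusted p under 0.05 gave 9 members higher, where 5.86% of all genes were higher, and DESeq2 called 3, where it called 0.915% of all genes. Both DNase-treated libraries exceeded both NTEV libraries in 16 members, against 20.3% of all genes, Rtp4 (log2 difference 2.01), Ifitm3 (2.02) and Trim30a (2.58) among them. The median log2 difference was 0.30.

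To set the members side by side, the log2 change with DNase-treated ATEVs was divided by that with untreated ATEVs for the 18 members that rose. This quotient is a description: both changes share the PBS libraries, and the members were taken by the size of the ATEV change. The median share kept was 53.05%, from -6.17% to 77.96%, with 10 members above 50% and 3 below 20%. The highest shares were those of Rtp4 (77.96%), Ifitm3 (66.8%), Xaf1 (65.1%), Slfn2 (64.6%) and Uba7 (62.7%). Herc6 (-6.17%), Phf11d (-4.95%), Nmi (6.05%), Sp110 (23.6%) and Ogfr (36.2%) had the lowest. Because the quotient divides by the ATEV rise, it does not rank the size of the fall. Rtp4 differed by -1.15 between treated and untreated ATEVs on the log2 scale, and Ogfr by -0.62. Shares of Sp110 and Sp100 (41.4%) depend on the small constant that edgeR adds to counts, since PBS held at most 3 counts. On linear CPM the median share was 34.03%, with Sp100 at 3.14% and Sp110 at 0.386%. NTEVs gave a median of 17.4% by the same quotient, from -15.2% to 42.7%.

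The 2 libraries of the NTEV and DNase-treated groups differed in a common direction. Of the 18 members that rose with ATEVs, 16 were higher in library 2 than in library 1 with NTEVs and 16 with DNase-treated ATEVs, while the numbers were 9 with ATEVs and 7 with PBS. Over all genes tested, library 2 was the higher in 49.1%, 50.3%, 47.8% and 52.02% in that order. The median log2 difference between the libraries of the 18 members was 0.28 with NTEVs and 0.36 with DNase-treated ATEVs. Rtp4 showed the span: 15.4 and 29.9 CPM in the DNase-treated libraries. The share kept was accordingly 41.0% at the median in DNase-treated library 1 and 50.7% in library 2, computed on log2 CPM. For NTEVs these values were 5.06% and 25.6%. The labels give no batch, and whether library number marks a shared handling was not tested.

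**Figure D5:**
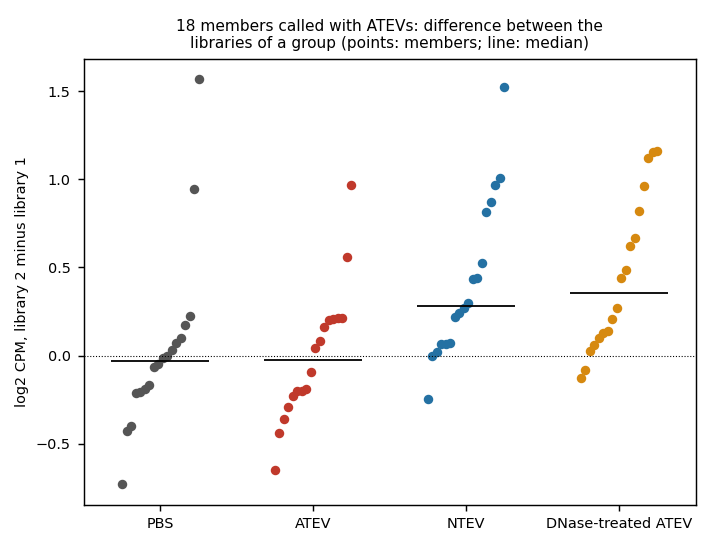
Difference in log2 CPM between library 2 and library 1 of each group (vertical axis) for the 18 members that rose with ATEVs, with a line at the median. With NTEVs and DNase-treated ATEVs 16 of the 18 points lie above 0, and the medians are 0.28 and 0.36.

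Genes upstream of the members were read from the same fit. Of 15 interferon receptor, kinase, transcription factor and feedback genes, all tested, 8 rose with ATEVs, where 3.52% of all genes tested did. With DNase-treated ATEVs 3 rose (Stat2, Irf7 and Usp18), where 2.16% of all genes did. None rose with NTEVs, where 0.704% of all genes did. At an unadjusted edgeR p under 0.05, 6 were higher with NTEVs, as were 10.3% of all genes. The DNase-treated calls of Stat2 and Irf7 were lost with any 1 of the 4 libraries left out, and that of Usp18 held only without DNase-treated library 1 (largest edgeR adjusted p = 0.284, 0.271 and 0.206). Irf1, an interferon-induced transcription factor, went from 35.6 ± 7.48 CPM (SD, n = 2) with PBS to 292 ± 142 CPM with ATEVs and was at 57.7 ± 0.710 CPM after DNase treatment. It fell by 2.34 with DNase treatment of the ATEVs (edgeR adjusted p = 0.0412). That call was lost without ATEV library 1 and without either DNase-treated library.

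Stat2, Irf9 and Irf7 were not called between treated and untreated ATEVs. Stat2 was at 22.8 ± 2.56 CPM (SD, n = 2) with PBS, 85.3 ± 5.45 CPM with ATEVs and 71.0 ± 28.3 CPM with DNase-treated ATEVs. Irf9, the DNA-binding partner of STAT2, was at 16.0 ± 0.330, 52.04 ± 3.69 and 39.8 ± 15.2 CPM in the same groups, and Irf7, which amplifies interferon production, at 5.49 ± 0.269, 65.8 ± 29.1 and 42.8 ± 23.6 CPM. Their treated against untreated differences, -0.27, -0.39 and -0.62, were not called (edgeR adjusted p = 0.863, 0.719 and 0.773). Their rises with ATEVs, by 1.90, 1.70 and 3.58, passed the test (edgeR adjusted p = 0.0236, 0.0259 and 0.0217). The calls of Stat2 and Irf9 were lost with any 1 PBS or ATEV library left out. That of Irf7 was lost when PBS library 1, PBS library 2 or ATEV library 2 was left out. Their largest edgeR adjusted p with any library left out was 0.187, 0.187 and 0.170.

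Transcripts of the interferons themselves were read as well. Of 9 interferon genes looked up, 8 (Ifnb1, Ifna1, Ifna2, Ifna4, Ifng, Ifnl2, Ifnl3 and Ifnk) had 0 counts in all 8 libraries, which allows up to 0.00871 CPM over the libraries together. Ifne, an interferon of epithelia, was at 0.0844 ± 0.00953 CPM (SD, n = 2) with PBS, 0.458 ± 0.0673 CPM with ATEVs, 0.227 ± 0.0389 CPM with NTEVs and 0.430 ± 0.0606 CPM with DNase-treated ATEVs. It rose by 2.42 with ATEVs (edgeR adjusted p = 0.0373; 0.238 at most with a library left out).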

How the data were processed

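Poly(A) RNA of 8 libraries, 2 for each of 4 treatments, was sequenced from stranded TruSeq libraries, per the labels' protocols. The authors deposited 1 table of raw counts per gene. The submitters' processing notes give the mm9 build and list TopHat2 2.0.11, Cufflinks 2.1.1 and bcl2fastq 2.19 with no roles stated. How reads were counted, with which strand setting and gene models, is not given in the sources used here, so values of overlapping or antisense genes are uncertain. From the counts, CPM were computed on TMM-scaled library sizes. Genes were filtered with filterByExpr by group and tested with edgeR 4.0.16 (R 4.3.3) in 1 quasi-likelihood fit of all 8 libraries, with 6 comparisons of group means. Standard errors are the log2 fold change divided by the square root of the F statistic. The fit was tested on simulated data. Alternatives were DESeq2 1.42.0, its size factors, no filter, 2 groups only, protein-coding genes only, a replicate block and each library left out. Symbols came from the supplied annotation (GENCODE M21), which gave 42250 of 42687 genes a symbol, and exon lengths came from it too. Promoter sequences are RefSeq's, and their GRCm38.p6 coordinates were not mixed with the mm9 counts. The members and lists were chosen with earlier results of these data known. All 37 members are named; values of every library are given for the 12 largest ATEV changes, the 8 smallest p with DNase-treated ATEVs, the 5 highest and 5 lowest shares kept and every member not called with ATEVs, and other members are given by group means. Of the context lists, the 4 genes with the smallest ATEV p are named, and Stat2, Irf9, Irf1, Irf7, Isg15 and Usp18 always; some genes of these lists are not reported here.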

Additional observations from a re-analysis of the deposited data

How the results depend on the processing

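Counts below are members called out of those tested. Counts over all genes, in either direction, are set beside them. The main fit tested 15197 genes, the fit without the filter 25199 and the protein-coding fit 12738. For ATEVs against PBS (18), settings other than leaving out a library gave between 16 and 26 calls, and leaving out a library gave 3 to 15. NTEVs against PBS (0) gave 5 without the low-count filter and 3 with DESeq2, where all genes gave 773 and 983, against 169 in the main fit. DNase-treated ATEVs against PBS (3) gave 14 without the filter, 16 with DESeq2, 7 with the 2 groups only, 1 with protein-coding genes only and 0 to 1 with a library left out. ATEVs against NTEVs (14) gave 2 with the 2 groups only and 0 to 9 with a library left out. DNase-treated against untreated ATEVs (3) gave 8 without the filter, 12 with DESeq2 and 0 to 1 with a library left out. DNase-treated ATEVs against NTEVs (0) gave 6 without the filter and 3 with DESeq2, where all genes gave 180 and 198, against 8 in the main fit. The median share kept (53.05%) was 34.03% on linear CPM and 42.2% to 53.6% with a library left out. The cause of these shifts was not tested. No called direction was reversed. Among single genes named, 38 comparisons lost and 195 gained a call over settings other than leaving out a library, and 156 lost and 3 gained a call with a library left out.

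Replicate numbers are shared by the groups' titles, but the labels do not say that they pair libraries. Differences between library 2 and library 1 correlated across genes at 0.529, 0.552 and 0.485 among the 3 EV groups and at -0.180, -0.236 and -0.141 between PBS and each EV group. A fit with the replicate block gave 23 calls for ATEVs against PBS, 1 for NTEVs against PBS and 10 for DNase-treated ATEVs against PBS. Over all 15197 genes tested it called 1182, 330 and 1052 in either direction, against 788, 169 and 458 in the main fit. A block over the 6 EV libraries only, added after seeing the data, gave 24 for ATEVs against NTEVs, 20 lower and 1 higher (Ifi27l2a) for DNase-treated against untreated ATEVs and 6 for DNase-treated ATEVs against NTEVs. Over all 14875 genes tested that fit called 1087, 1736 and 793 in either direction, in each comparison many more than the main fit. The added calls were thus not confined to the members.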
